A study of Mus musculus with 9 samples.

Results

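Transcripts of 10 chemokine genes were followed in sorted mouse kidney cells, out of 55385 genes in the count table. They were chosen by symbol: Cxcl1, Cxcl2, Cxcl5, Cxcl10, Cxcl12, Cxcl16, Cx3cl1, Ccl2, Ccl20 and Ccl28. Each symbol occurred once in the table. RNA came from tdTomato-positive cells of male mice 9 to 12 weeks old and weighing 25 to 30 g, sorted from digested cortex and outer medulla. There were 3 groups of 3 biological replicates. The uninjured group carried Slc34a1IRES-CreERT2/+:R26RtdT/+ and received tamoxifen, so that the label marked cells in which the Slc34a1 promoter, active in proximal tubule, was on. The 48 h group carried Sox9IRES-CreERT2/+:R26RtdT/+, had bilateral renal ischemia and reperfusion with tamoxifen at the time of surgery, and gave cells that had switched on Sox9 by 48 h. The d14 group had the same genotype and injury, tamoxifen on days 10 and 12, and cells taken on day 14, so that the label marked late Sox9 expression. All groups carried a knock-in Cre and the tdTomato reporter. Cre driver, injury and tamoxifen schedule changed together between the uninjured group and both others, and their parts cannot be told apart. Between the 48 h and d14 groups, time after injury and tamoxifen schedule changed together. Rises and falls between these groups compare separately labelled cells and not the same cells over time. Labels do not say whether the uninjured mice had a sham operation or whether any animals were pooled.

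Chemokines are small secreted proteins that are held on heparan sulphate and guide leukocytes through G protein-coupled receptors. CXCL1, CXCL2 and CXCL5 carry an ELR motif and attract neutrophils through CXCR2. CCL2 attracts monocytes through CCR2, and CCL20 attracts CCR6-bearing lymphocytes and dendritic cells. CX3CL1 and CXCL16 are made as membrane-anchored proteins that ADAM10 and ADAM17 can release, and they bind CX3CR1 and CXCR6. CXCL12 binds CXCR4 and the scavenging receptor ACKR3, CXCL10 is an interferon-inducible ligand of CXCR3, and CCL28 is an epithelial ligand of CCR10 and CCR3. In injured kidney, tubular epithelium is known as a source of several of them, and NF-kB is a well-known activator of many of their genes.

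Uninjured libraries held 31585507 to 51631204 counts, the 48 h ones 8036054 to 23794029 and those of d14 19239354 to 30414758. Levels below are CPM, counts relative to a library size scaled by TMM (trimmed mean of M values). A library with no count of a gene allows up to 3 counts, or 0.0651 to 0.105 CPM for uninjured libraries, 0.138 to 0.431 CPM for 48 h and 0.0816 to 0.119 CPM for d14, from counting error alone. Sox9 ranged from 0.0351 to 0.635 CPM without injury, from 7.57 to 22.1 CPM in 48 h libraries and from 28.8 to 38.8 CPM in d14 libraries. The 10 proximal tubule markers summed to 17167 to 19406 CPM in uninjured libraries, 6909 to 12369.6 CPM at 48 h and 3299.55 to 4482 CPM at d14. The 4 loop of Henle markers summed to 148 to 216, 744.9 to 931 and 2939 to 5231 CPM, and the 3 distal convoluted and connecting tubule markers to 62.9 to 109, 208 to 381 and 1952 to 3486 CPM. All 7 of these distal markers were called higher at d14 (25.1% of all genes) and all 10 proximal ones lower (20.7%), both against uninjured cells. Mitochondrial genes held 25.1 to 29.2% of counts in uninjured libraries, 32.7 to 39.2% in 48 h ones and 15.2 to 25.2% in d14 ones. Neither the part of this shift nor that of the shift in tubule segment markers in the results below was tested.

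Sequence upstream of the start site was taken from RefSeq (GRCm38.p6) for the 7 members listed there: Cxcl1, Cxcl2, Cxcl10, Cxcl12, Cx3cl1, Ccl20 and Ccl28. In the 250 bases before each start, 3 patterns were searched on both strands. The NF-kB type was GGG, any 2 bases, TT, any base and CC, the AP-1 type was TGANTCA with N for any base, and the interferon-response type was GAAA, any 2 bases and GAAA. These patterns were chosen after the sequences were seen. The NF-kB pattern occurred in 4 of the 7 members and in 4.11% of 32851 promoters, the AP-1 pattern in 1 and in 6.75%, and the interferon pattern in 1 and in 2.98%. The 4 members with a match are shown because 3 of them (Cxcl1, Cxcl2 and Ccl20) had few or no counts in uninjured cells and rose after injury, and Cxcl10 was the member with all 3 patterns. Bases -230 to -31 from the start are printed on the gene's strand, with matches in capitals.
Cxcl1, chr5:90891015-90891214, plus strand: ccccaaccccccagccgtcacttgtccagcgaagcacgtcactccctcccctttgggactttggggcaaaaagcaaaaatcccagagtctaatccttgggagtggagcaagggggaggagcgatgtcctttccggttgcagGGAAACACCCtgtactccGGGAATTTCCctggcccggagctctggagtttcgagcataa
Cxcl2, chr5:90903669-90903868, plus strand: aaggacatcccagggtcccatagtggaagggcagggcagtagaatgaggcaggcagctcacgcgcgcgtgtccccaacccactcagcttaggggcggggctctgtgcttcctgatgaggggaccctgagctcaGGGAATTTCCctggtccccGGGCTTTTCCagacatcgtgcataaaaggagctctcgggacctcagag
Ccl20, chr1:83116536-83116735, plus strand: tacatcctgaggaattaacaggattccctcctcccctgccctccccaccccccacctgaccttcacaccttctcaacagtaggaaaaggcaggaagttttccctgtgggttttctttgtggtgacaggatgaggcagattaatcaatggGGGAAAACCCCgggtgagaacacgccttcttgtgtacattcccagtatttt
Cxcl10, chr5:92348920-92349119, minus strand: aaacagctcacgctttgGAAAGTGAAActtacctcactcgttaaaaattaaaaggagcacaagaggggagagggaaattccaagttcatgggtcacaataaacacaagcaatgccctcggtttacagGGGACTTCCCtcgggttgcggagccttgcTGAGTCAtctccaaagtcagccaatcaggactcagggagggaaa
In Cxcl1 the matches start at -89 (on the other strand) and -71, in Cxcl2 at -97 and -78, and in Cxcl10 the NF-kB match starts at -103, the AP-1 match at -74 and the interferon match at -213. Those of Ccl20 start at -81 and -80, overlap each other and lie on the other strand. The longest run shared by the Cxcl1 and Cxcl2 windows was 14 bases, gggaatttccctgg, which starts at -71 in Cxcl1 and at -97 in Cxcl2 and holds a match in each. A match describes letters in a window and does not show that a factor bound there.

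Most of the chemokine transcripts were more abundant in both injury groups. Cxcl1 and Cxcl2 overlapped between 48 h and d14, Cxcl5 and Cx3cl1 rose further by d14, and Cxcl12 was lower at d14 than in either other group. Against uninjured cells, 7 of 10 members were called at 48 h (edgeR quasi-likelihood test, adjusted p under 0.05), where 29.1% of all 15519 genes tested were called. All 7 were higher (17.4% of all genes) and 0 lower (11.7%), with 0 lower also at an unadjusted p under 0.05, by DESeq2 and by limma voom. At d14, 9 were called (45.8% of all genes), of which 8 were higher (25.1%) and 1 lower (20.7%). Between d14 and 48 h, 3 were called (33.1% of all genes), of which 2 were higher (16.8%) and 1 lower (16.3%), counts near those shares. Without 48 h replicate 3, 6 members were called, 5 of them higher, where 4672 of 16330 genes were called, 2413 of them higher. The first 2 comparisons share the uninjured libraries. In such bulk libraries, fewer cells of a type and less RNA per cell cannot be told apart.

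All 10 members passed the low-count filter, but 5 of them (Cxcl1, Cxcl2, Cxcl5, Ccl2 and Ccl20) passed only through the injury groups, so they could differ from uninjured cells in no direction but upward. Of the 5 that were past the cutoff in every uninjured library, 2 were higher and 0 lower at 48 h, and 3 were higher and 1 lower at d14. The matching share over all genes past the cutoff in uninjured libraries was not computed, so these counts stand without a background. They include Cxcl16 at 48 h and Cxcl10 at d14, each not called without any 1 uninjured library. The lowest CPM of one group lay above the highest of the other for 6 members at 48 h against uninjured (21.5% of all genes) and for 8 at d14 against uninjured (34.4%), where 1 more lay wholly below (28.9%). At d14 against 48 h, 4 lay wholly above (26.7%) and 1 wholly below (20.6%). No member lay wholly below the uninjured libraries at 48 h (20.8%). The median log2 fold change over the members was 2.24 at 48 h, 3.46 at d14 and 0.55 between d14 and 48 h, and over all genes tested it was 0.02, 0.06 and 0.05. The first 2 medians were the same with members that had no or almost no uninjured counts set at their bound or count ratio. Those members lay above the middle of the 10 values either way, so the medians could not move and this says nothing about the bounds. Listed genes and markers below that passed the low-count filter only through the injury groups could likewise differ from uninjured cells only upward.

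**Figure D1:**
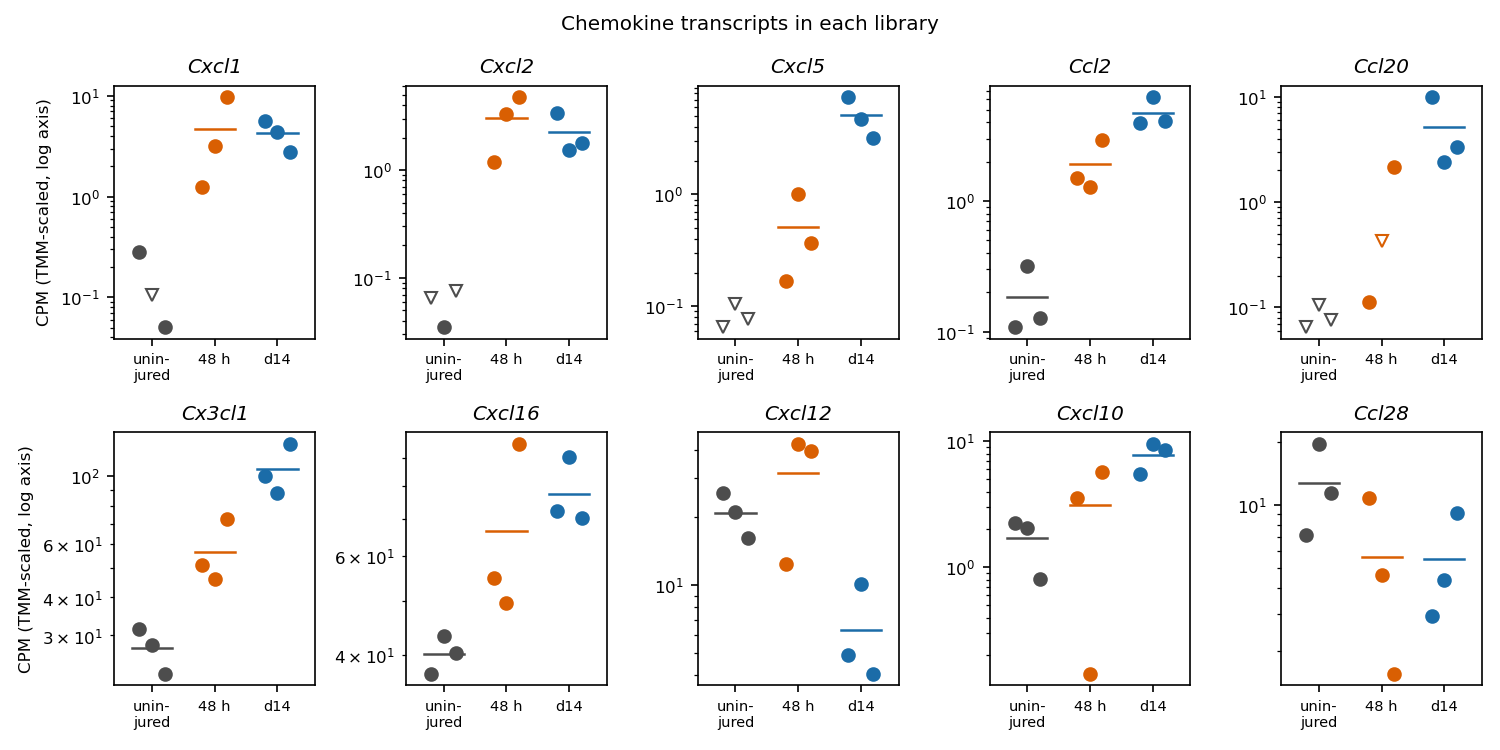
Each panel shows 1 chemokine gene with its CPM on a log axis in the 3 libraries of each group, and a line at the group mean where all 3 libraries had counts. Open triangles stand for libraries with no count, drawn at the level that 3 counts would give, so they mark an upper limit. The panels of Cxcl1, Cxcl2, Cxcl5, Ccl2 and Ccl20 show uninjured libraries below all or nearly all others, and the panel of Cxcl12 shows d14 libraries below all others.

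Among the neutrophil-attracting ligands, Cxcl1 (ENSMUSG00000029380.11, GRCm38 chromosome 5 from 90891241 to 90893115) had 13, 0 and 2 counts in the uninjured libraries, which is 0.282, 0 and 0.0508 CPM. It was at 1.23, 3.16 and 9.63 CPM at 48 h and at 5.63, 4.39 and 2.80 CPM at d14. Every injured library lay above every uninjured one, and the 48 h and d14 libraries overlapped. The log2 fold change was 5.23 ± 1.02 (SE, edgeR adjusted p = 0.00345) at 48 h and 5.08 ± 1.01 (adjusted p = 0.00184) at d14, and -0.15 ± 0.81 (adjusted p = 0.905) between d14 and 48 h. Without uninjured replicate 1, which held 13 of the 15 uninjured counts, the first 2 values were 7.14 and 6.99. Without 48 h replicate 3, the library with the highest Cxcl1, the 48 h value was 4.09 and the last one was positive (1.007).

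Cxcl2 (ENSMUSG00000058427.10, chromosome 5 from 90903871 to 90905938) lies beside Cxcl1 and had 1 count in all uninjured libraries together. It was at 1.18, 3.31 and 4.70 CPM at 48 h and at 3.38, 1.54 and 1.80 CPM at d14. Injured and uninjured libraries did not overlap, and 48 h and d14 did. The ratio of counts per scaled library was 358 at 48 h (95% Poisson interval 63.2 to 14233, counting error only, edgeR adjusted p = 3.25e-04) and 253 at d14 (interval 44.9 to 10054, adjusted p = 1.59e-04). Between d14 and 48 h it differed by -0.45 ± 0.68 on the log2 scale (adjusted p = 0.645).

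Cxcl5 (ENSMUSG00000029371.7, chromosome 5 from 90759360 to 90761624) had no count in any uninjured library. At 48 h it was at 0.168, 1.006 and 0.369 CPM, from 3, 7 and 8 counts. At d14 it was at 7.36, 4.71 and 3.18 CPM, from 117 to 209 counts, so that all d14 libraries lay above all 48 h libraries. Against 3 counts over the uninjured group it was at least 14.7-fold higher at 48 h (edgeR adjusted p = 0.00398) and at least 187-fold higher at d14 (adjusted p = 8.71e-05). It rose by 3.47 ± 0.75 between 48 h and d14 (adjusted p = 0.0077), or 11.1-fold, and by 4.20 without 48 h replicate 2, the 48 h library with the highest Cxcl5 (4.09 when scaled by total count alone). Genes of this cluster share related coding sequences, and the expected counts do not show how reads were divided among them.

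Ccl2 (ENSMUSG00000035385.5, chromosome 11 from 82035571 to 82037453), the monocyte attractant, was at 0.109, 0.316 and 0.127 CPM in uninjured libraries, from 5 to 9 counts. It was at 1.51, 1.29 and 2.95 CPM at 48 h and at 3.94, 6.21 and 4.11 CPM at d14. The groups stood in the order uninjured, 48 h and d14 with no overlap. Its log2 fold change was 3.43 ± 0.60 at 48 h (edgeR adjusted p = 0.00167) and 4.71 ± 0.62 at d14 (adjusted p = 8.77e-05). The step from 48 h to d14 was 1.28 ± 0.52 and did not pass (adjusted p = 0.0842), while it passed with DESeq2 (adjusted p = 0.0368) and without 48 h replicate 3 (adjusted p = 0.0499).

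Ccl20 (ENSMUSG00000026166.14, chromosome 1 from 83116766 to 83119167), the ligand of CCR6, had no count in uninjured libraries. At 48 h it had 2, 0 and 47 counts, which is 0.112, 0 and 2.17 CPM, so 1 library held nearly all of them. At d14 it was at 9.86, 2.41 and 3.32 CPM, above every 48 h library. Against 3 counts over the uninjured group it was at least 28.8-fold higher at 48 h on the mean of library CPM (40.0-fold on pooled counts, edgeR adjusted p = 0.0262) and at least 194-fold higher at d14 (adjusted p = 0.00342). Without 48 h replicate 3 the 48 h group had 2 counts, too few for a fold. The 48 h call was lost without that library (adjusted p = 0.149), without any 1 uninjured library (adjusted p = 0.0593 to 0.069), with voom (adjusted p = 0.073) and without the filter on low counts (adjusted p = 0.0723). The difference between d14 and 48 h was 2.62 ± 1.19 (adjusted p = 0.129), and 6.01 ± 1.19 without 48 h replicate 3 (adjusted p = 0.00736).

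The membrane-anchored ligands were present in every library. Cx3cl1 (ENSMUSG00000031778.13, chromosome 8 from 94772009 to 94782427), which encodes fractalkine, was at 31.4, 28.01 and 22.5 CPM in the uninjured libraries, at 51.0, 45.8 and 72.5 CPM in the 48 h ones and at 100.4, 88.0 and 128 CPM in those of d14. The 3 groups did not overlap in any pair. It rose by 1.05 ± 0.20 on the log2 scale at 48 h (edgeR adjusted p = 0.00294) and by 1.95 ± 0.20 at d14 (adjusted p = 1.88e-05), which is 2.08-fold and 3.86-fold. The further rise from 48 h to d14 was 0.90 ± 0.20 (adjusted p = 0.00642), and it was called in every alternative fit and with any 1 library left out, with 1.46 when libraries were scaled by total count alone.

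Cxcl16 (ENSMUSG00000018920.11, chromosome 11 from 70453983 to 70459984) was at 37.1, 43.3 and 40.4 CPM in the uninjured libraries, at 54.8, 49.6 and 95.3 CPM in the 48 h ones and at 72.3, 90.2 and 70.2 CPM in those of d14. Injured libraries all lay above uninjured ones, and 48 h and d14 overlapped. It rose by 0.95 ± 0.22 at d14 (edgeR adjusted p = 0.00467, and 1.51 with libraries scaled by total count alone) and by 0.73 ± 0.22 at 48 h (adjusted p = 0.0289). The 48 h rise was 0.37 ± 0.14 without 48 h replicate 3 (adjusted p = 0.0876), and was not called without any 1 uninjured library either (adjusted p = 0.0607 to 0.0991). Between d14 and 48 h it differed by 0.21 ± 0.22 (adjusted p = 0.488), and by 0.57 ± 0.14 without 48 h replicate 3 (adjusted p = 0.0147). Cxcl16 shares 552 bases with Zmynd15 on the other strand, which was at 5.77 to 15.3 CPM, and the libraries are strand-specific per the labels, but with no strand setting of the counting stated, reads from the shared stretch cannot be told apart.

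Cxcl12 (ENSMUSG00000061353.11, chromosome 6 from 117168535 to 117181367), which encodes SDF-1, moved the other way late. It was at 25.8, 21.1 and 16.2 CPM in the uninjured libraries, at 12.4, 42.4 and 39.4 CPM in the 48 h ones and at 4.89, 10.1 and 4.05 CPM in those of d14. The d14 libraries lay below all others, and the 48 h libraries fell on both sides of the uninjured ones. The log2 fold change was 0.57 ± 0.47 at 48 h (edgeR adjusted p = 0.415). It fell by 1.74 ± 0.49 at d14 against uninjured (adjusted p = 0.0175), which is 3.34-fold, and by 2.31 ± 0.50 at d14 against 48 h (adjusted p = 0.00831). The fall from uninjured was not called without uninjured replicate 1 or d14 replicate 1 or 3 (adjusted p = 0.0589, 0.0762 and 0.0642), nor when libraries were scaled by total count alone (-1.19, adjusted p = 0.0656) or genes were not filtered (-1.79, adjusted p = 0.0691). The fall from 48 h was called in every alternative fit and with any 1 library left out (adjusted p at most 0.0435).

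Cxcl10 (ENSMUSG00000034855.13, chromosome 5 from 92346638 to 92348889) was at 2.24, 2.07 and 0.812 CPM in the uninjured libraries, at 3.53, 0.144 and 5.72 CPM in the 48 h ones and at 5.53, 9.54 and 8.54 CPM in those of d14. The value of 0.144 CPM in 48 h replicate 2 rests on 1 count in the shallowest library. It rose at d14 by 2.204 ± 0.75 (edgeR adjusted p = 0.0341), with no overlap with uninjured libraries. At 48 h its log2 fold change was 0.95 ± 0.74 (adjusted p = 0.378), and 1.44 ± 0.45 without 48 h replicate 2 (adjusted p = 0.0356). The d14 call was lost when any 1 uninjured library or d14 replicate 2 or 3 was left out (adjusted p = 0.0679 to 0.111) and without the filter on low counts (adjusted p = 0.0778). Cxcl10 lies within Art3 on the other strand, which was at 0 to 0.381 CPM, and Ccl2 within Gm17268, which had no count.

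Ccl28 (ENSMUSG00000074715.3, chromosome 13 from 119623819 to 119654359), a ligand of epithelia of mucosal surfaces, was at 7.14, 19.5 and 11.3 CPM in uninjured cells. It was at 10.7, 4.60 and 1.57 CPM at 48 h and 2.96, 4.39 and 9.14 CPM at d14. The libraries of all 3 groups overlapped, and Ccl28 was the member called in none of the comparisons. Its log2 fold changes from uninjured were -1.16 ± 0.68 at 48 h (edgeR adjusted p = 0.235) and -1.19 ± 0.66 at d14 (adjusted p = 0.174). Without 48 h replicate 1 it was called lower at 48 h (-2.16 ± 0.68, adjusted p = 0.0411).

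**Figure D2:**
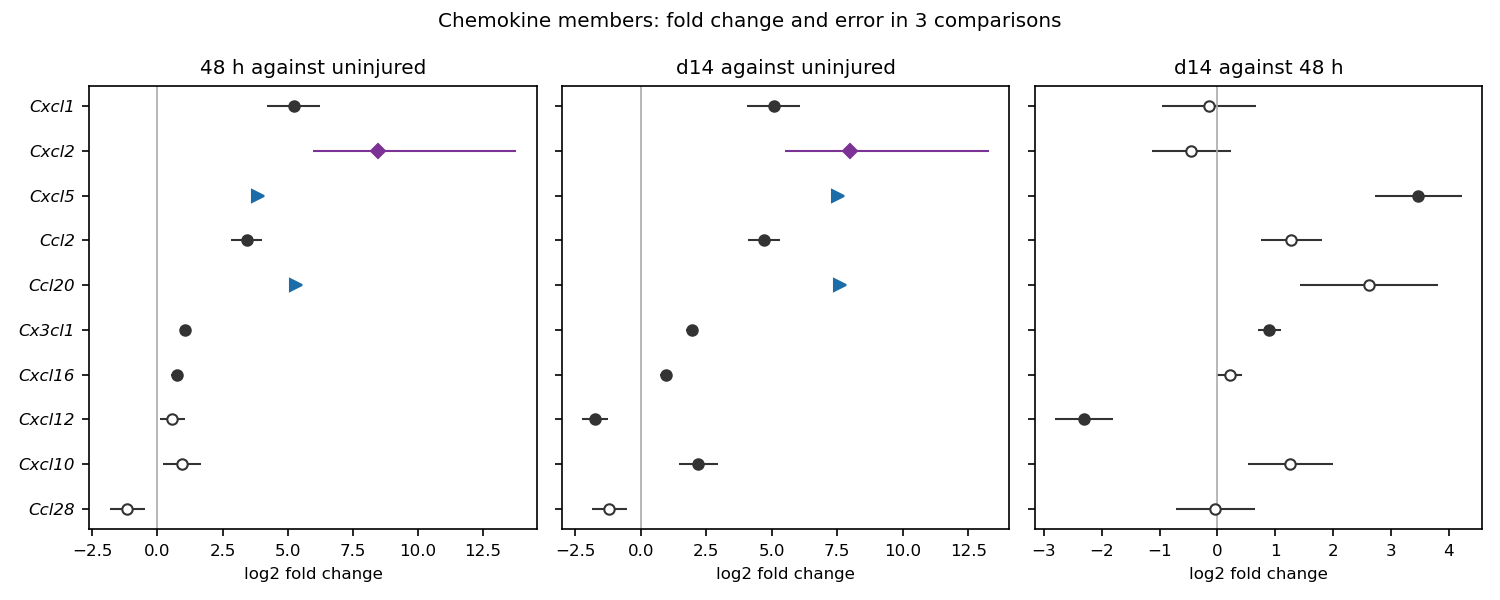
Log2 fold changes of the 10 genes in the 3 comparisons. Circles are fitted values with their SE, diamonds are count ratios with 95% Poisson intervals where the uninjured group had 1 count, triangles are lower bounds on pooled counts where it had none (for Ccl20 at 48 h the bound on mean CPM is lower, 28.8-fold), and filled symbols were called at adjusted p under 0.05. Cxcl1 and Cxcl2 sit near 0 between d14 and 48 h, while Cxcl5 and Cx3cl1 lie to the right and Cxcl12 to the left.

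Levels of different genes were set side by side as CPM per kilobase of merged exons in GENCODE M21. Lengths ran from 1138 bases in Ccl2 to 8176 bases in Cxcl12, whose exons were merged over 4 transcripts, so its value per kilobase can be too low where shorter forms are made. In uninjured cells Cxcl16 came first (13.3 ± 1.03 CPM per kb, SD, n = 3) and Cx3cl1 next (6.95 ± 1.15). Ccl28 (2.61 ± 1.29) and Cxcl12 (2.57 ± 0.586) followed and did not differ beyond their spread. At 48 h Cxcl16 (22.0 ± 8.28) and Cx3cl1 (14.4 ± 3.599) still led. At d14 Cx3cl1 (26.8 ± 5.19) and Cxcl16 (25.7 ± 3.64) were not apart beyond their spread, and Ccl2 (4.18 ± 1.11), Ccl20 (3.66 ± 2.86) and Cxcl10 (3.49 ± 0.928) came after them and did not differ beyond their spread. Cxcl12 was at 0.776 ± 0.400 at d14 and did not differ beyond its spread from Cxcl2 (1.08 ± 0.481) or Ccl28 (1.14 ± 0.668), the next lowest.

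The membrane-anchored ligands together held 76.9 ± 3.303% of the summed CPM per kb of the members without injury, 74.4 ± 4.45% in the 48 h group and 73.1 ± 4.45% in the d14 group (SD, n = 3). The make-up of the remainder changed. Cxcl12 held 8.30 to 12.1% of the sum in uninjured libraries, 3.87 to 13.2% in 48 h ones and 0.689 to 1.73% in d14 ones, and Ccl28 held 5.64 to 13.7%, 0.466 to 5.65% and 0.846 to 2.62%. Ccl20 held 2.38 to 9.62% and Cxcl5 2.37 to 5.48% at d14, and both had no counts in uninjured cells. The share of Cxcl16 in the same sum was 46.9 to 55.9% in uninjured libraries and 32.3 to 41.8% at d14. Shares of this kind are tied to one another, since a rise of one gene lowers those of the others.

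**Figure D3:**
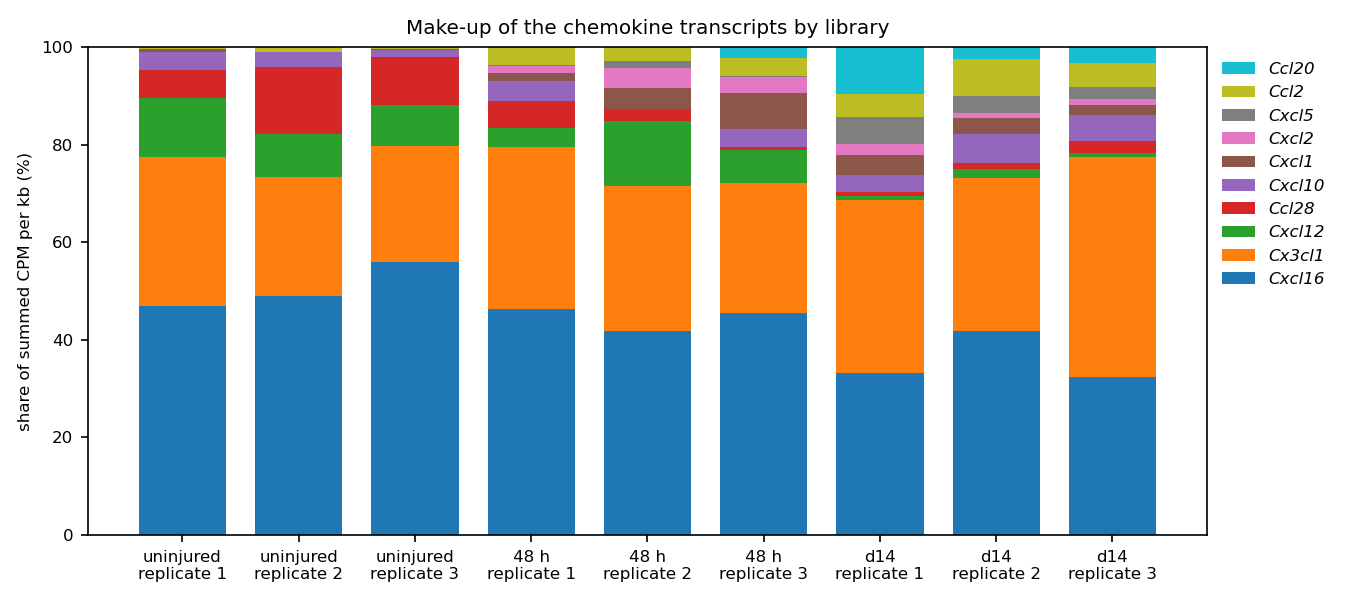
Share of each chemokine gene in the summed CPM per kilobase of the 10 genes, 1 bar per library. The blue and orange blocks of Cxcl16 and Cx3cl1 fill between 68.6% and 79.8% of every bar, the green block of Cxcl12 shrinks to under 2% at d14, and the blocks of Ccl20, Ccl2 and Cxcl5 at the top are widest at d14.

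Several of these ligands are also made by leukocytes and vessels, so markers of such cells were read in the same libraries. The 8 neutrophil markers summed to 2.84 to 8.14 CPM in uninjured libraries, 114 to 349 CPM at 48 h and 3.43 to 6.06 CPM at d14, with Ly6g at 0 in uninjured cells. All 6 that could be tested were higher at 48 h (17.4% of all genes) and lower again at d14 (16.3%), and 1 (Mmp9) was higher at d14 than in uninjured cells. Cxcr2 and Mmp8 passed the low-count filter only through the 48 h group, so they could be called only in these directions. Mmp9 passed only through the injury groups and could differ from uninjured cells only upward. Cxcl1, Cxcl2 and Cxcl5 together were at 0.0351 to 0.282, 2.58 to 14.7 and 7.78 to 16.4 CPM. At d14 the ligand sums lay above all uninjured ones, and the neutrophil sums lay within the uninjured range. At 48 h both were high in 48 h replicate 3 and lowest in 48 h replicate 1. The part of neutrophils, or of the macrophages and monocytes below, in the levels of these 3 ligands was not tested at either time.

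The 11 macrophage and monocyte markers summed to 27.5 to 35.2 CPM in uninjured libraries, 120 to 375 CPM at 48 h and 66.2 to 145 CPM at d14, none of them at 0 in any group. Of these, 5 were higher at 48 h (17.4% of all genes) and 7 at d14 (25.1%) than in uninjured cells, and 0 were lower by edgeR (0 also at an unadjusted p under 0.05). Ccl2, Ccl20 and Cxcl16 were also higher in both injury groups and Cxcl10 at d14, and the part of such cells in those results was not tested. The highest sum was in 48 h replicate 3, the library with the highest 48 h values of Cxcl1, Cxcl2, Cxcl10, Cxcl16, Cx3cl1, Ccl2 and Ccl20. The 9 endothelial markers summed to 77.1 to 144 CPM in uninjured libraries, 84.4 to 718 CPM at 48 h and 27.8 to 60.0 CPM at d14. By edgeR 0 were called against uninjured cells in either group (at an unadjusted p under 0.05, 3 higher at 48 h and 0 at d14), while 8 had all d14 libraries below all uninjured ones (28.9% of all genes). All 9 were called lower at d14 than at 48 h (16.3% of all genes), as Cxcl12 was. Within 48 h the order was opposite: replicate 1, with the most endothelial transcript (718 CPM), had the least Cxcl12 (12.4 CPM). The part of endothelial cells in the d14 value of Cxcl12 was not tested. The 7 lymphocyte markers summed to 0.431 to 1.85 CPM and none could be tested. The 8 fibroblast and pericyte markers summed to 29.1 to 35.4 CPM in uninjured libraries, 25.9 to 54.8 CPM in 48 h ones and 23.0 to 55.8 CPM in d14 ones, with Lum at 0 in the first 2 groups. Most of these sums was Cspg4, at 28.0, 36.7 and 29.6 CPM on average. Of 7 tested, 3 were higher at d14 (25.1% of all genes), namely Col1a1, Col3a1 and Dcn, and Col1a1 was at 0.156 CPM in uninjured and 3.08 CPM in d14 cells. These 3 passed the low-count filter only through the injury groups, so against uninjured cells they could differ only upward. Pdgfrb went the other way, from 1.85 to 0.657 CPM, and was not called. All its d14 libraries lay below all uninjured ones (28.9% of all genes). The 5 principal cell markers summed to 51.4 to 65.3, 194 to 207 and 172 to 226 CPM, with 4 higher in each injury group (17.4% and 25.1% of all genes). The 4 intercalated cell markers summed to 9.27 to 16.6, 23.6 to 39.5 and 53.7 to 67.4 CPM, with 2 higher at 48 h and 3 at d14 (17.4% and 25.1% of all genes). The 5 podocyte markers summed to 34.5 to 56.2, 32.3 to 145 and 18.4 to 35.2 CPM. Of these, 1 was higher at 48 h (17.4% of all genes) and 1 higher and 1 lower at d14 (25.1% and 20.7%), counts near those shares. The part of these cells in the levels of the members was not tested.

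**Figure D4:**
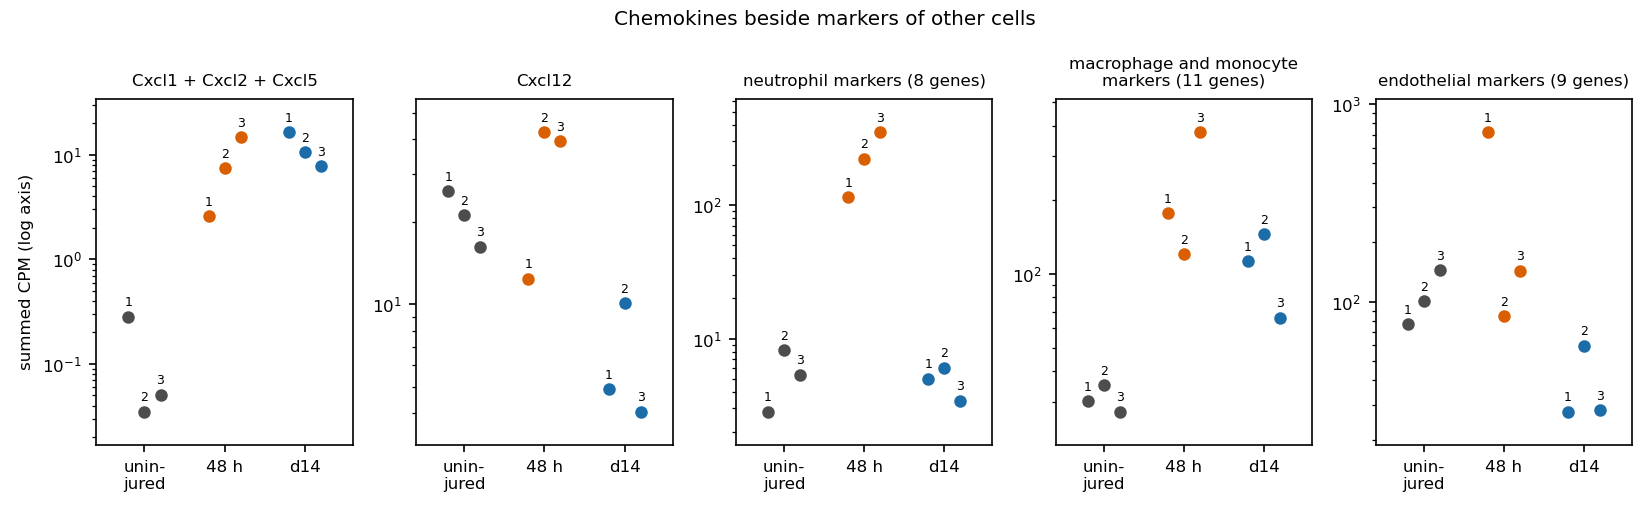
Summed CPM on log axes for Cxcl1, Cxcl2 and Cxcl5 together, for Cxcl12, and for markers of neutrophils, of macrophages and monocytes and of endothelial cells, with each point 1 library and its replicate number above it. At d14 the neutrophil panel lies in the uninjured range and the first panel lies above it. The endothelial panel has its highest point in 48 h replicate 1, where Cxcl12 is lowest among the 48 h libraries. The part of any of these cells in the ligand levels was not tested.

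Beyond the 10 members, 30 of 31 other chemokine ligands on a list were in the table, 7 of them with no count in any library, and 8 could be tested. At 48 h, 4 were higher and 0 lower than in uninjured cells (17.4% and 11.7% of all genes), with a median log2 fold change of 2.99 (0.02 over all genes). At d14, 5 were higher and 0 lower (25.1% and 20.7%), with a median of 3.02. No ligand was lower in these comparisons at an unadjusted p under 0.05 or by DESeq2 or voom. However, most of the 8, among them Ccl7, Ccl9, Cxcl14 and Cxcl17, passed the low-count filter only through the injury groups. Such ligands could differ from uninjured cells only upward, so these counts and medians were largely set by the filter. From 48 h to d14 1 was higher and 1 lower (16.8% and 16.3%), with a median of 0.43. Cxcl17, a mucosal chemokine-like gene, had 1 count in uninjured cells, was at 0.601 CPM at 48 h and reached 12.5 CPM at d14. It rose by 4.15 ± 0.74 between 48 h and d14 (edgeR adjusted p = 0.00201). Ccl6, a ligand of myeloid cells, was at 1.14, 15.5 and 1.94 CPM in uninjured, 48 h and d14 cells and fell by 3.01 ± 0.46 from 48 h to d14 (adjusted p = 7.67e-04). Ccl9 was at 0.267, 6.98 and 3.07 CPM and was higher in both injury groups. Cxcl14 was at 0.064, 0.362 and 1.88 CPM and was called at d14 (4.72 ± 1.31, adjusted p = 0.012), but not without d14 replicate 1 (adjusted p = 0.0599). Ccl7, the neighbour of Ccl2, had no uninjured count and was at least 13.9-fold higher at 48 h and at least 23.5-fold higher at d14.

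Of 22 chemokine receptors, 10 could be tested. At 48 h, 5 were higher and 0 lower (17.4% and 11.7% of all genes), with a median log2 fold change of 2.11 and 0 lower also at an unadjusted p under 0.05, by DESeq2 and by voom. At d14 the counts were 1 and 1, below the 25.1% and 20.7% of all genes, with a median of 0.46. The 5 were Cxcr2, Ccr1, Cxcr4, Ccr2 and Cx3cr1, which leukocytes carry, and Cx3cr1 is named after its values were seen. Cxcr2, the receptor of the ELR ligands and also on the neutrophil list, went from 0.184 to 18.05 CPM at 48 h (6.59 ± 0.47, edgeR adjusted p = 3.67e-06) and was at 0.197 CPM at d14. Only the 48 h group carried Cxcr2 past the low-count filter. Cxcr2 could thus be called only higher at 48 h than in uninjured cells, and only lower at d14 than at 48 h. Ccr1, with 0, 14 and 7 uninjured counts, passed mainly through the injury groups. The receptor counts and medians in comparisons with 48 h were therefore partly set by the filter. Ccr2, the receptor of CCL2, was at 1.45, 12.5 and 2.54 CPM, and Ccr1 at 0.223, 10.7 and 0.736 CPM. These 3 were lower at d14 than at 48 h (16.3% of all genes), and 0 receptors were higher by edgeR, DESeq2, voom or at an unadjusted p under 0.05, with a median of -1.57. The call of Ccr2 was lost without 48 h replicate 3 or d14 replicate 1 or 3 (adjusted p = 0.0733 to 0.101). Ackr3, the scavenging receptor of CXCL12, was the receptor called lower at d14, from 42.4 to 29.2 CPM (-0.54 ± 0.17, adjusted p = 0.0263). Its value was 0.03 when libraries were scaled by total count alone, and the call was lost without uninjured replicate 2 or d14 replicate 3. Cxcr4, the signalling receptor of CXCL12, was higher at d14 (2.26 ± 0.67, adjusted p = 0.0173), and was the 1 receptor called higher there. Without d14 replicate 2 it was not called (adjusted p = 0.0747), and other alternatives called up to 3 receptors higher.

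Of 10 genes that release, trim or hold chemokines, 3 were higher and 1 lower at 48 h (17.4% and 11.7% of all genes), and 4 were higher and 2 lower at d14 (25.1% and 20.7%), both against uninjured cells. The counts of lower genes lie near the shares of all genes. Median log2 fold changes were 0.02 and 0.34. From 48 h to d14, 4 were higher and 2 lower (16.8% and 16.3% of all genes), with a median of 0.19, and 2 were higher without d14 replicate 1, while 1 was lower without d14 replicate 1 or 3 or 48 h replicate 2. Adam17, a sheddase of CX3CL1 and CXCL16, was at 18.3, 27.6 and 42.9 CPM in uninjured, 48 h and d14 cells, and rose by 1.23 ± 0.17 at d14 (edgeR adjusted p = 1.24e-04). Timp3, an inhibitor of such sheddases, fell by 0.80 ± 0.15 at 48 h (adjusted p = 0.00296) and by 2.03 ± 0.16 at d14 (adjusted p = 2.02e-06), from 2280 to 1308 and 557 CPM. Sdc1, a heparan sulphate proteoglycan, rose from 2.18 to 17.8 and 33.9 CPM. Sdc4, another of them, was at 253, 233 and 449.6 CPM and was higher at d14 than in either other group. Adam10, another sheddase of these chemokines, rose from 61.1 to 85.04 and 88.2 CPM, but its 48 h call was lost when any of 4 libraries was left out, replicates 1 and 2 of the uninjured group and 2 and 3 of the 48 h group (adjusted p = 0.0671 to 0.122), by total count alone (0.0572) and with only the compared groups (0.0536). Hs2st1, a heparan sulphate sulphotransferase, was at 19.4, 15.5 and 24.4 CPM and was higher at d14 than at 48 h (adjusted p = 0.00932). The count of 3 higher at 48 h was 1 when uninjured replicate 1 or 2 or 48 h replicate 3 was left out.

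All 27 listed receptors and regulators upstream of chemokine transcription and mRNA decay were tested. At 48 h, 17 were higher and 0 lower than in uninjured cells (17.4% and 11.7% of all genes), and 0 were lower at an unadjusted p under 0.05 or by DESeq2 or voom. The median log2 fold change was 0.87. At d14, 21 were higher and 1 lower (25.1% and 20.7% of all genes), with a median of 1.11. Relb, an NF-kB subunit, was at 0.982, 6.82 and 17.1 CPM in uninjured, 48 h and d14 cells. It rose by 2.82 ± 0.37 at 48 h (edgeR adjusted p = 2.69e-04), by 4.13 ± 0.38 at d14 (adjusted p = 6.31e-06) and by 1.31 ± 0.34 from 48 h to d14 (adjusted p = 0.0126), a step not called without d14 replicate 3 (adjusted p = 0.0546). Nfkb2 was at 8.28, 26.1 and 38.5 CPM, and Stat3, which carries signals of the IL-6 family, at 37.2, 92.2 and 179 CPM.

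From 48 h to d14, 8 of the 27 were higher and 2 lower (16.8% and 16.3% of all genes), with a median of 0.28. Tnfaip3, which encodes the NF-kB inhibitor A20, was at 4.195, 4.66 and 12.99 CPM and rose in this step by 1.46 ± 0.25 (edgeR adjusted p = 0.00138). Il1r1, the interleukin 1 receptor, was at 0.746, 4.68 and 18.6 CPM and rose by 1.97 ± 0.48 (adjusted p = 0.0111). The count of 8 was 5 without d14 replicate 1 and 4 without d14 replicate 3, and the count of 2 lower was 0 and 1 without d14 replicates 1 and 2. Tnfrsf1a, the main TNF receptor of epithelia, was at 26.5, 72.0 and 71.0 CPM, and differed by -0.02 ± 0.12 between d14 and 48 h (adjusted p = 0.91). Il17ra, a subunit of the interleukin 17 receptor, was the gene called lower at d14 against uninjured cells, from 43.2 to 21.6 CPM, and is named after its values were seen.

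**Figure D5:**
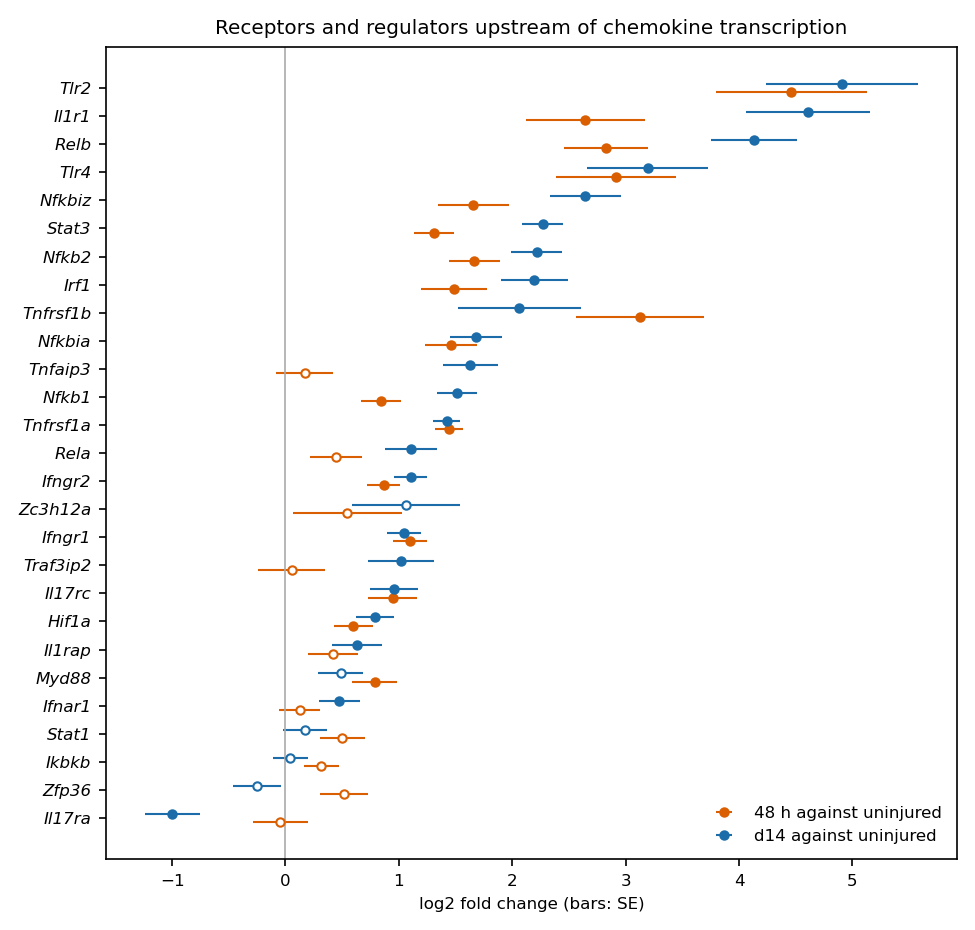
Log2 fold changes with SE of the 27 listed receptors and regulators, 48 h in orange and d14 in blue, both against uninjured cells, sorted by the d14 value. Filled circles were called at adjusted p under 0.05. Most lie to the right of 0 at both times, Tnfaip3 is filled at d14 and open at 48 h, and Il17ra is the filled point left of 0.

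For each member the genes of most similar profile were taken by the root-mean-square difference in log2 CPM, standardised over the 9 libraries, among 12385 tested genes with a mean of at least 1 CPM. Ccl2 had the closest matches, Cytip (0.0937 SD) and Runx1 (0.102 SD). Runx1, a transcription factor, was at 0.42 ± 0.124, 3.80 ± 1.55 and 9.19 ± 2.29 CPM in uninjured, 48 h and d14 cells. Cx3cl1 was closest to Slc7a6 (0.108 SD) and Rrad (0.128 SD), and Cxcl2 to Tpm4 (0.109 SD) and Arpc1b (0.116 SD), which belong to the actin cytoskeleton. Cxcl5 was closest to Tmem123 (0.131 SD) and Rnf43 (0.163 SD), and Rnf43, a Wnt feedback gene, was at 1.34 ± 0.186, 4.08 ± 1.10 and 12.3 ± 2.81 CPM. Cxcl10 was near Zfp324 (0.212 SD) and the interferon-induced Ifit3 (0.225 SD), Cxcl1 near Cep85 (0.180 SD) and Fn1 (0.189 SD), and Cxcl16 near Tifa (0.224 SD) and Ccdc88c (0.240 SD). Cxcl12 (Sh3tc2, 0.264 SD) and Ccl28 (Bod1, 0.272 SD) had the most distant nearest genes, and Ccl20 was near Plxna1 (0.174 SD). These are likenesses over the same 9 libraries, in which 29.1% to 45.8% of genes were called between groups.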

How the data were processed

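Polyadenylated RNA of 9 samples of sorted cells was measured. The authors deposited 1 table of RSEM expected counts per gene and library, whole numbers not scaled for depth. Tools in the submitters' processing notes are RSEM 1.2.28, STAR 2.6.1, bcl2fastq 2.20, R 3.6.3 and DESeq2 1.26.0. They list mm10 beside a human build, and all gene identifiers are mouse. Libraries were strand-specific per the labels' protocols, with the strand setting of counting not stated there. RSEM splits reads between similar genes such as Cxcl1 and Cxcl2, which the counts do not show. The 92 spike-in rows, all at 0, were left out. All 10 members matched GENCODE M21 with their version.

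Counts were fitted with edgeR 4.0.16 in R 4.3.3: filterByExpr (minimum count 10, minimum total 15), TMM, 1 mean per group over all 9 libraries, robust quasi-likelihood F-tests and Benjamini-Hochberg adjustment over 15519 genes, with calls at adjusted p under 0.05. Code was tested on simulated data. SE is the size of the log2 fold change over the square root of F. A group at 0 counts is set at 3 counts, and with 1 to 3 counts a 95% Poisson ratio interval is given. Alternatives were DESeq2 1.42.0, limma 3.58.1 (voom with sample weights), RLE or no scaling factors, no filter, 2 groups only, a replicate block and leaving out each library. All members are named. From other lists the rule took up to 4 called genes by p in each comparison, and it took 2 nearest genes per member, of which 1 is not reported here. Members and lists were chosen with earlier results of these data known. Replicates are labelled biological, with no source named, so p-values measure the spread between these samples, which may be technical.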

Additional observations from a re-analysis of the deposited data

Results flagged for a closer look

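For 3 members the change from uninjured cells differed between the injury groups, by the test of d14 against 48 h, which equals the difference of the 2 changes. The values were 3.47 for Cxcl5, 0.90 for Cx3cl1 and -2.31 for Cxcl12 on the log2 scale (edgeR adjusted p = 0.0077, 0.00642 and 0.00831). Cxcl5 and Cx3cl1 were higher at d14 in 3 of 3 libraries, and Cxcl12 was lower in 3 of 3. The same test of d14 against 48 h called 33.1% of all genes tested. The count of 3 members lies near that share, so it does not set the members apart from other genes.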

How the results depend on the processing

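Over the 30 values of members in 3 comparisons, 436 recomputed values kept direction and side of the threshold, 24 lost the call, 8 gained it and 10 changed sign, none of which was called. With only the compared groups fitted, 4 members were called at 48 h in place of 7, all higher, since Cxcl5 and Ccl20 then failed the low-count filter and Cxcl16 had an adjusted p of 0.0559. That fit called 3598 of 14455 genes. Scaling by total count alone moved the median of all genes from 0.06 to 0.63 in d14 against uninjured and from 0.05 to 0.63 in d14 against 48 h. It raised the share of higher calls among all genes from 54.8% to 83.8% and from 50.7% to 87.9%, and called 7746 genes in place of 5137 in the latter. It called 5 members in d14 against 48 h (4 higher) in place of 3 (2 higher), and 0 lower in d14 against uninjured in place of 1, as did fitting without the filter (0). Leaving out 1 library gave 5 to 8 members called at 48 h (5 to 8 higher, 0 to 1 lower), 7 to 9 in d14 against uninjured (7 to 8 higher, 0 to 1 lower) and 3 to 6 in d14 against 48 h (2 to 5 higher, 1 lower). The value of 6 came without 48 h replicate 3. Over the same fits 3141 to 4640, 5805 to 7990 and 3625 to 5141 genes were called in the 3 comparisons, of 15978 to 16511 tested. Sign changes of members lay in d14 against 48 h. By total count alone Cxcl1 was at 0.42, Cxcl2 at 0.15 and Ccl28 at 0.52, and Ccl28 was at 0.79 with voom. Leaving out 1 library gave -0.61 to 1.007 for Cxcl1, -0.87 to 0.038 for Cxcl2 and -0.62 to 0.97 for Ccl28. Ackr3 was at 0.035 in d14 against uninjured by total count alone. Causes not shown by these settings were not tested.

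Same-numbered libraries did not deviate together (correlations of deviations from group means -0.127 to 0.019), and no comparison had every library correlate best with its own number, so the numbers do not pair samples. The replicate block gave 6, 8 and 3 members called in the 3 comparisons, without Ccl20 at 48 h (adjusted p = 0.0596) and Cxcl10 at d14 (adjusted p = 0.0756), and changed no other call of a member. With that block 3818, 6615 and 4414 of 15519 genes were called. In the shallowest library, 48 h replicate 2 with 8036054 counts, a count of 0 allows up to 0.431 CPM.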
